A study of Mus musculus with 11 samples.

Results

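Endothelial cells line blood and lymph vessels, and the genes described here are those by which such cells are recognised or by which vessels are told to grow. The 35 genes were given as a list of symbols, and all 35 were found among the 23337 gene symbols of the count table. The list was not drawn from measured values of this table, but it was put together with earlier results of these data known. It holds 3 secreted ligands (Vegfa, Angpt2 and Apln), 6 receptors (Kdr, Flt1, Flt4, Tek, Tie1 and Aplnr), 15 other genes of endothelial cells, most of them junction and surface proteins, 2 genes of fenestrated endothelium (Plvap and Ehd3), 7 transcription factors (Erg, Fli1, Ets1, Tal1, Sox7, Sox17 and Sox18) and 2 lymphatic markers (Lyve1 and Prox1).

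Vascular endothelial growth factor A, encoded by Vegfa, is released by the cells of a tissue and acts through Kdr on endothelium, which then sprouts, while Flt1 binds the same ligand and holds part of it back. The angiopoietins act through Tek and keep vessels quiet or, in the case of Angpt2, loosen them. The adrenal gland is among the most densely vascularised tissues. Its sinusoids are fenestrated, carry hormones out of the gland and run from the cortex into the medulla.

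RNA was sequenced from adrenals of male Hsd:Athymic Nude-Foxn1nu mice, with 6 samples labelled ORX, from orchectomized animals, which lack testes, and 5 samples labelled intact. Mice homozygous for the nude allele of Foxn1 lack a thymus and therefore most T cells, which holds for both groups if the strain name gives their genotype. All animals had been inoculated with VCaP, a line of human prostate cancer cells, in week 0 of the study, when 5 to 6 weeks old, were allocated to the groups at week 7 and were killed at week 15. The labels do not say that each sample came from its own mouse, so p-values measure only how far these samples spread, and part of that may be technical.

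The libraries held 11368447 to 15029582 gene counts, and every member had at least 28 counts in every library. Unless stated otherwise, values are CPM, read counts relative to a library size that was scaled by the TMM method. As markers of the adrenal, 8 genes of the steroidogenic cortex summed to 59303 to 90973 CPM in ORX and 32711 to 71418 CPM in intact and 10 genes of the medulla to 7309 to 17961 CPM in ORX and 12920.2 to 29601 CPM in intact. The 10 kidney and liver genes summed to 166 to 2371 CPM in ORX and 481 to 1781 CPM in intact, with ORX 3 the highest library. Umod and Nphs1 were at 0 in every library, and the 4 tested genes did not pass, with a median log2 fold change of 2.04. Of these, Cyp2e1 averaged 671 ± 834 CPM in ORX and 1210.2 ± 581 CPM in intact. Of the libraries, 3 stand apart. ORX 3 lay nearest to intact along axis 1 of a multidimensional scaling plot (-0.12, against -0.85 or lower in the other ORX libraries and 0.73 or higher in intact). ORX 6 was low in long transcripts, by 0.68 (log2 CPM, median over the tenth of genes with the longest transcripts) below the other ORX libraries, and high in short ones, by 0.72. Intact 3 had the lowest summed level of cortex genes and the highest of 8 fat genes among intact libraries (6595 CPM). Results are therefore given with and without ORX 3, and ORX 6 and intact 3 are named where they set a value.

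Among these genes, levels were mostly lower in ORX than in intact adrenals, with the largest differences in Apln, Lyve1, Vwf and Flt1. All 35 members passed the filter on low counts and were tested. Of these, 5 fell in ORX (Apln, Vwf, Eng, Nos3 and Lyve1), 0 rose and 30 did not pass the test (two-sided quasi-likelihood test of edgeR, Benjamini-Hochberg adjusted over all 14139 tested genes, adjusted p under 0.05). Falls made up 14.3% of the members, against 3.18% of all tested genes, and rises were 0 of the members, against 3.03% of all tested genes (6.21% for either direction). At an unadjusted p under 0.05, 17 members were lower and 0 were higher, against 12.2% and 10.7% of all tested genes. DESeq2 called 8 members lower and 0 higher, against 5.63% and 5.01% of its tested genes, and limma voom 9 and 0, against 7.74% and 6.8%. The log2 fold change was below 0 in 31 of 35 members (88.6%, against 48.7% of all tested genes; 29 members with library totals in place of TMM, which put Plvap and Cldn5 above 0), and its median was -0.43 over the members, against 0.01 over all tested genes.

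A fold change in whole glands does not tell fewer endothelial cells from less RNA per cell. The groups did not overlap for 3 members, Apln, Eng and Ets1, all lower in ORX, where 2.36% of all tested genes were lower without overlap, and 0 members were higher without overlap, against 2.92%. Without ORX 3 the groups did not overlap for 9 members, against 4.29% of all tested genes. The number of members called depended on single libraries, being 9 without ORX 3 and 1 without any 1 of ORX 1, ORX 2 and ORX 5, and 2 without any 1 of intact 1, intact 2 and intact 5. The number of all tested genes called lower moved in the same fits, from 450 over all libraries to 729 without ORX 3. It was 237, 210 and 195 without ORX 1, ORX 2 and ORX 5 in turn, and 224, 271 and 182 without intact 1, intact 2 and intact 5. With an offset for transcript length, 4 members fell (Eng, Sox18, Apln and Lyve1), against 3.25% of all tested genes.

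**Figure D1:**
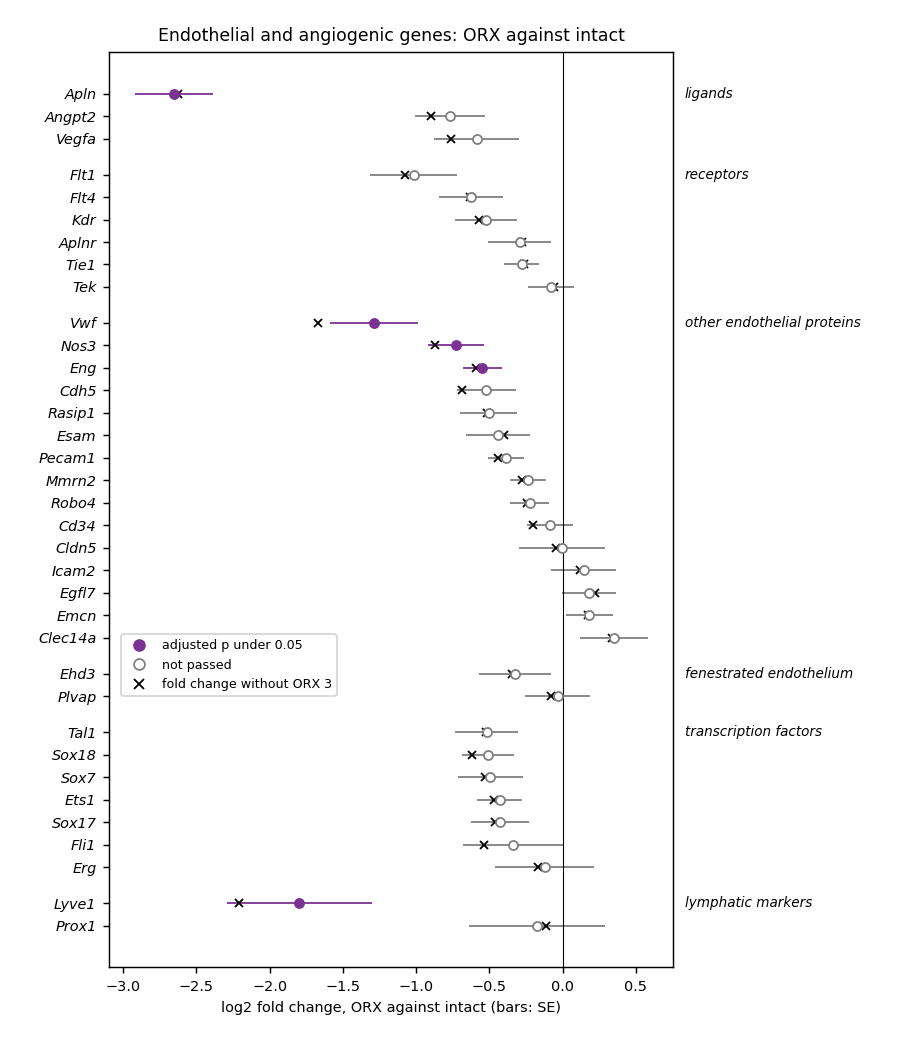
The horizontal axis gives the log2 fold change, ORX against intact, of each member as a circle with its SE as a bar, and members are grouped by role. Filled circles passed at an adjusted p under 0.05, and crosses give the fold change without ORX 3. Apln lies at -2.65 and Lyve1, Vwf, Nos3 and Eng between -1.797 and -0.55, and 4 members (Clec14a, Emcn, Egfl7 and Icam2) lie above 0.

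The largest difference was that of Apln, the gene of the peptide hormone apelin, which is made by sprouting endothelial cells and binds the receptor Aplnr (chrX:48025146-48034853, minus strand, GRCm38). Its level was 8.26, 6.75, 6.27, 7.84, 4.32 and 8.60 CPM in ORX 1 to 6, against 69.1, 37.4, 28.8, 28.3 and 57.0 CPM in intact 1 to 5. Every ORX library lay below every intact library, the highest of ORX being 8.60 CPM and the lowest of intact 28.3 CPM, and ORX 3 was the second lowest of its group. Apln fell 6.29-fold (log2 -2.65 ± 0.27 SE; edgeR adjusted p = 0.000113; n = 6 and 5). The fall passed under all 23 alternative settings, with log2 fold changes between -2.85 and -2.43.

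The receptor gene of apelin, Aplnr, did not pass the test. It had 18.5, 14.2, 12.4, 10.8, 13.9 and 10.03 CPM in ORX 1 to 6, against 11.2, 15.2, 14.5, 23.3 and 17.6 CPM in intact 1 to 5. The groups overlapped widely (log2 -0.29 ± 0.21; edgeR adjusted p = 0.444). Set against Pecam1, a gene of all endothelial cells, in the same library, the log2 ratio of Apln was -3.73 ± 0.47 in ORX and -1.53 ± 0.52 in intact (SD, n = 6 and 5). This difference of -2.21 had an exact two-sided permutation p of 0.00216, the smallest that 462 splits allow, and an adjusted p of 0.00866 over the 4 ratios tested. The corresponding differences were 0.10 for Aplnr, -0.42 for Angpt2 and -0.16 for Vegfa (exact permutation tests, adjusted p = 0.641, 0.199 and 0.641). For Apln the groups already stood further apart than Pecam1 varied (76.4 to 127 CPM over all libraries). The smallest p was thus fixed by the Apln counts and adds no support to the fall of Apln.

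Promoter windows of RefSeq (GRCm38.p6, 250 bases before to 50 after a gene's start) were matched for 19 members, in 26 windows. The 250 bases before the start are shown for Apln and Eng, which fell in ORX, and for Emcn, which did not pass the test and lay slightly above 0, to set the same short motif side by side. Capitals mark AGGAAG, a common core of sites for ETS factors such as Erg, Fli1 and Ets1, read on either strand (CTTCCT on the printed strand is a match on the other). The stretch shown is chrX:48034854-48035103 on the minus strand for Apln, chr2:32646345-32646594 on the plus strand for Eng and chr3:137340828-137341077 on the plus strand for Emcn.
Apln: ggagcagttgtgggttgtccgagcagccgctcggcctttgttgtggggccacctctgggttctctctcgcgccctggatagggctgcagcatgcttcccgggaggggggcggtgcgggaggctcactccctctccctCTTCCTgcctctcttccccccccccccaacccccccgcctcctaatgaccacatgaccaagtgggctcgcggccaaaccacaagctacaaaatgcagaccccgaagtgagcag
Eng: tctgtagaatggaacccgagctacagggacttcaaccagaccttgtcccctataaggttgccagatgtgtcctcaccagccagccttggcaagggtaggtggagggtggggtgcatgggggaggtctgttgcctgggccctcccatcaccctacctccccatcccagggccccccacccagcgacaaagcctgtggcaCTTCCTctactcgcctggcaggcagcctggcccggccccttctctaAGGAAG
Emcn: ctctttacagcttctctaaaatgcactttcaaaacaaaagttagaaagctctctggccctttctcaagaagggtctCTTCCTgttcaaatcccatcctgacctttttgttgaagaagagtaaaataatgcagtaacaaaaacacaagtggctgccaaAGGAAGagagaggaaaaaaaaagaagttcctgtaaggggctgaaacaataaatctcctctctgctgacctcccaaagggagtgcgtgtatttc
The motif stands 1 time in the Apln window and 2 times each in those of Eng and Emcn. It was found in 12 of 26 member windows (46.2%), belonging to 11 genes, against 33.3% of the windows of tested genes and 35.4% of all RefSeq windows. The longer ETS motif CCGGAAG was in 0 member windows, against 15.4% of the windows of tested genes. ACGTG, the core of the hypoxia response element, was in 3 member windows (11.5%), against 24.4%, and ACAAT, a core of SOX sites, in 6 (23.1%), against 20.4%. The GATA motif AGATAA was in 4 (15.4%), against 6.46%. All motifs were searched on both strands, and AGGAAG and CCGGAAG share the letters GGAAG without one holding the other. Of the 11 genes with AGGAAG, 2 fell (Apln and Eng) and 9 did not pass. Vwf, Nos3 and Lyve1, which also fell, had no matched window, so Apln and Eng were the only fallen members that could be searched. A match describes letters in a window and not a bound site.

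Angpt2, the angiopoietin that destabilises vessels (chr8:18690263-18741562, minus strand), was lower in 5 ORX libraries than in any intact library. It had 2.01, 3.05, 5.01, 3.50, 3.68 and 3.77 CPM in ORX 1 to 6, against 5.83, 5.01, 6.42, 7.62 and 5.00 CPM in intact 1 to 5. ORX 3 was the highest of its group and the only ORX library that reached the intact range. Angpt2 did not pass, at log2 -0.77 ± 0.24 (edgeR adjusted p = 0.0747), while without ORX 3 it was -0.90 ± 0.24 (edgeR adjusted p = 0.0368). That was the only 1 of the 11 fits without 1 library in which it passed (edgeR adjusted p up to 0.146, without ORX 2).

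Vegfa, the most abundant member per length, made up 21.8% to 37.2% of the members' counts in ORX and 25.7% to 41.8% in intact. Its level was 455, 721, 1176, 619, 815 and 723 CPM in ORX 1 to 6, against 1886, 1363, 688, 951 and 759 CPM in intact 1 to 5. Intact 1 and 2 were high and the other 3 intact libraries lay inside the ORX range, at the top of which stood ORX 3. The log2 fold change of Vegfa was -0.59 ± 0.29 (edgeR adjusted p = 0.244), and leaving out any 1 library gave values from -0.76 to -0.32.

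Both ligands of Flt4 were higher in ORX. Vegfd, listed in the table under its older symbol Figf and a ligand of lymphatic endothelium through Flt4, had 89.6, 145, 102, 157, 88.8 and 148 CPM in ORX 1 to 6, against 50.5, 35.7, 38.1, 62.8 and 36.2 CPM in intact 1 to 5. Every ORX library lay above every intact library, a 2.73-fold rise (log2 1.45 ± 0.22; edgeR adjusted p = 0.00189). Vegfc, the other ligand of Flt4, also rose without overlap, with 5.76 ± 1.32 CPM in ORX and 2.22 ± 0.481 CPM in intact (SD; log2 1.37 ± 0.24; edgeR adjusted p = 0.00518). Both passed without any 1 library. Vegfb averaged 98.7 ± 24.0 CPM in ORX and 106 ± 30.4 CPM in intact (edgeR adjusted p = 0.807), and placental growth factor, Pgf, 1.77 ± 0.588 CPM in ORX and 1.81 ± 1.24 CPM in intact (edgeR adjusted p = 0.972). Angpt1, the activating ligand of Tek, averaged 5.25 ± 2.49 CPM in ORX and 7.04 ± 1.959 CPM in intact (edgeR adjusted p = 0.516).

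**Figure D2:**
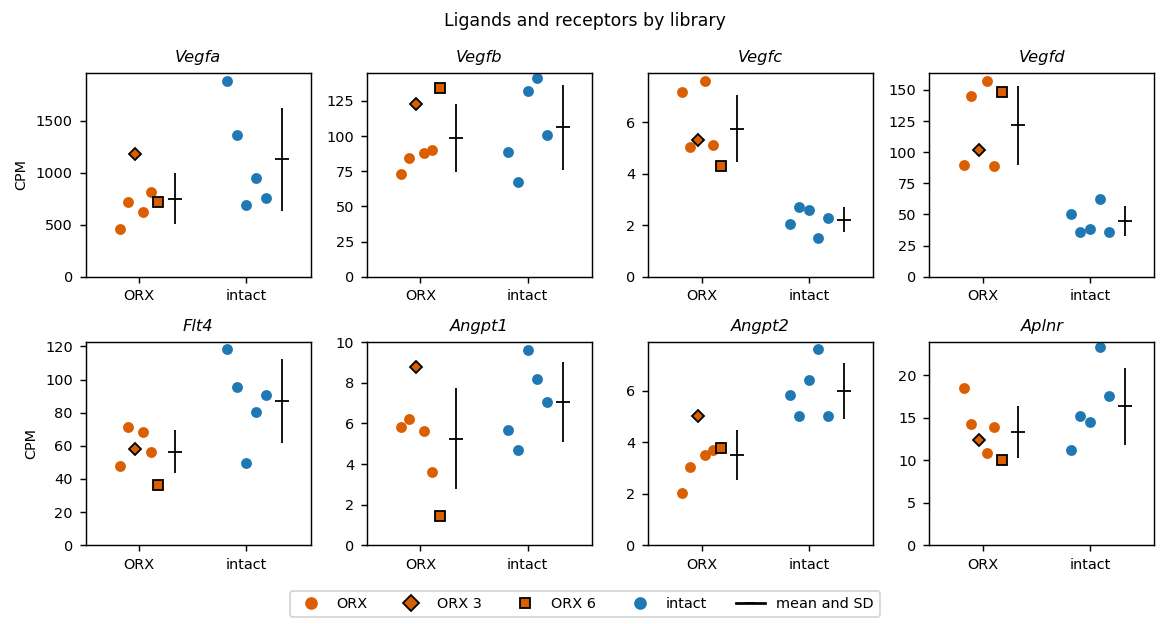
Each point is 1 library, in CPM on the vertical axis, in ORX (orange, n = 6; ORX 3 as a diamond, ORX 6 as a square) and intact (blue, n = 5), and bars give mean and SD. Vegfc and Vegfd lie higher in every ORX library than in any intact library, whereas Vegfa, Vegfb, Flt4, Angpt1, Angpt2 and Aplnr overlap.

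None of the 6 receptor genes passed the test, although all 6 had a log2 fold change below 0, with a median of -0.41. Flt1, the VEGF receptor that also exists as a soluble decoy (chr5:147561604-147726011, minus strand), had 71.2, 84.7, 89.6, 104, 67.5 and 34.0 CPM in ORX 1 to 6, against 208, 204, 71.5, 116 and 160.4 CPM in intact 1 to 5. Intact 3 lay inside the ORX range, and ORX 6 was the lowest library of all. Flt1 stood at log2 -1.02 ± 0.30 (edgeR adjusted p = 0.0589), the smallest p among the receptors, and without intact 3 it was at -1.21 ± 0.26 (edgeR adjusted p = 0.0175). Without ORX 3 it was at -1.07 ± 0.32 and did not pass (edgeR adjusted p = 0.055). Flt1 passed in 1 of the 11 fits without 1 library (edgeR adjusted p up to 0.142, without intact 1).

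Kdr, the main signalling receptor of VEGF-A (chr5:75932827-75978458, minus strand), had 131, 136, 139, 131, 120.2 and 60.2 CPM in ORX 1 to 6, against 216, 198, 119.9, 151 and 174 CPM in intact 1 to 5. The ORX libraries other than ORX 6 lay close together, between 120.2 and 139.1 CPM, and all of them reached or passed the level of intact 3 while staying below the other intact libraries (log2 -0.52 ± 0.21; edgeR adjusted p = 0.164). Flt4, the receptor of Vegfc and Vegfd, which marks lymphatic and fenestrated endothelium, averaged 56.4 ± 13.0 CPM in ORX and 87.0 ± 25.1 CPM in intact (SD; log2 -0.62 ± 0.22; edgeR adjusted p = 0.105), a fold change of the opposite sign to those of its 2 ligands. It was at -0.78 without intact 3 (edgeR adjusted p = 0.0277) and at -0.63 without ORX 3 (edgeR adjusted p = 0.116). Flt4 passed in 1 of the 11 fits without 1 library (edgeR adjusted p up to 0.245, without intact 1).

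Tek, the angiopoietin receptor also called Tie2, did not pass. It had 77.7, 85.3, 65.2, 73.9, 70.4 and 53.5 CPM in ORX 1 to 6, against 86.0, 89.5, 55.2, 75.8 and 69.0 CPM in intact 1 to 5. The lowest 2 libraries were ORX 6 and intact 3, and the groups covered nearly the same range (log2 -0.08 ± 0.16, 95% interval on 9 residual degrees of freedom -0.43 to 0.27; edgeR adjusted p = 0.8). Tie1, the orphan partner of Tek, averaged 65.4 ± 3.03 CPM in ORX and 79.4 ± 12.5 CPM in intact (SD; log2 -0.28 ± 0.12; edgeR adjusted p = 0.19).

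Of the 15 other endothelial genes, 3 fell, 12 did not pass, and 11 had a log2 fold change below 0. Vwf, which encodes von Willebrand factor, a blood clotting protein of endothelium and platelets (chr6:125546774-125686679, plus strand), had 6.32, 5.00, 17.2, 7.91, 6.25 and 5.13 CPM in ORX 1 to 6, against 18.4, 18.6, 24.3, 19.3 and 16.5 CPM in intact 1 to 5. In 5 ORX libraries Vwf was at or below 7.91 CPM, less than every intact library, whereas ORX 3 lay inside the intact range. Over all libraries Vwf fell by 1.29 ± 0.30 on the log2 scale (edgeR adjusted p = 0.0253), and without ORX 3 it was at log2 -1.67 ± 0.19 (edgeR adjusted p = 0.000303). Its call ended without any 1 of ORX 1, ORX 2 and ORX 5 (edgeR adjusted p up to 0.0625, without ORX 5). It also ended with the offset for transcript length, at log2 -0.99 (edgeR adjusted p = 0.0558), and without intact 3 and ORX 6 together (edgeR adjusted p = 0.0556).

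Eng, which encodes endoglin, an accessory receptor for BMP and TGF-beta ligands on endothelium (chr2:32646595-32682669, plus strand), had 111, 117, 151, 139.9, 137 and 142 CPM in ORX 1 to 6, against 234, 188, 162, 183 and 206 CPM in intact 1 to 5. The groups did not overlap, with ORX 3 the highest of ORX and intact 3 the lowest of intact. Eng fell 1.46-fold (log2 -0.55 ± 0.13; edgeR adjusted p = 0.0299). An end of the antisense gene Fpgs overlaps its exons, and the strand setting of the counts is not known. Fpgs itself averaged 22.5 ± 3.3 CPM in ORX and 21.0 ± 3.8 CPM in intact.

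Nos3, the endothelial nitric oxide synthase, whose product relaxes vessels (chr5:24364810-24384474, plus strand), had 26.9, 18.04, 39.7, 23.1, 24.9 and 28.7 CPM in ORX 1 to 6, against 55.3, 38.3, 49.7, 36.5 and 42.7 CPM in intact 1 to 5. As with Vwf, ORX 3 was the single ORX library inside the intact range. Nos3 fell (log2 -0.73 ± 0.19; edgeR adjusted p = 0.0402), and stood at -0.87 ± 0.17 (edgeR adjusted p = 0.009) without ORX 3. Its exons overlap the antisense gene Atg9b, which averaged 2.42 ± 1.17 CPM in ORX and 4.48 ± 1.798 CPM in intact, and a predicted antisense gene. The calls of Eng and Nos3 ended without any 1 of ORX 1, 2 and 5 and intact 1, 2 and 5, and that of Nos3 also without ORX 4 or intact 3 (edgeR adjusted p up to 0.0856 and 0.109, both without intact 1). With the offset for transcript length the call of Nos3 ended as well, at log2 -0.69 (edgeR adjusted p = 0.0527), as it did without intact 3 and ORX 6 together (edgeR adjusted p = 0.0605).

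Pecam1, the adhesion molecule CD31 found at the contacts of nearly all endothelial cells (chr11:106654217-106750628, minus strand), had 87.8, 94.0, 108, 89.5, 92.7 and 76.4 CPM in ORX 1 to 6, against 125, 127, 96.0, 124 and 126 CPM in intact 1 to 5. In intact, 4 libraries lay close together and intact 3 stood below them, under the level of ORX 3. Pecam1 did not pass, with log2 -0.39 ± 0.12 (edgeR adjusted p = 0.083). Without ORX 3 it was at -0.44 ± 0.13 (edgeR adjusted p = 0.0487), and without intact 3 at -0.47 ± 0.12 (edgeR adjusted p = 0.0391). These were the only 2 of the 11 fits without 1 library in which Pecam1 passed (edgeR adjusted p up to 0.183, without intact 5).

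Cdh5, VE-cadherin, which holds endothelial cells together (chr8:104101625-104144511, plus strand), had 86.2, 93.1, 144, 103, 78.4 and 57.7 CPM in ORX 1 to 6, against 135, 128, 118, 171 and 120.1 CPM in intact 1 to 5. Here too ORX 3 was high, above 4 of the 5 intact libraries, and the other 5 ORX libraries lay below all intact ones. Cdh5 was at log2 -0.52 ± 0.20 (edgeR adjusted p = 0.141) and at -0.68 ± 0.17 (edgeR adjusted p = 0.029) without ORX 3. That was the only 1 of the 11 fits without 1 library in which it passed (edgeR adjusted p up to 0.253, without ORX 5). Emcn, a sialomucin of capillaries and veins, lay slightly above 0, with 89.9, 139.7, 124, 113, 119 and 141 CPM in ORX 1 to 6, against 119, 136, 80.2, 102 and 96.5 CPM in intact 1 to 5. That difference was within the spread of the groups (log2 0.18 ± 0.16; edgeR adjusted p = 0.536).

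Among the remaining 9 genes of this class, the log2 fold changes ran from -0.51 for Rasip1, a regulator of vessel lumen formation, to 0.35 for Clec14a, a surface lectin, and none passed. Between them, Esam, an adhesion molecule of tight junctions, was at -0.44 ± 0.22 and Mmrn2, a matrix partner of Clec14a, at -0.24 ± 0.12. Robo4, an endothelial guidance receptor, was at -0.22 ± 0.13 and Cd34, also carried by blood stem cells and fibroblasts, at -0.09 ± 0.16. Cldn5, a tight junction protein, stood at -0.00157 ± 0.29, Icam2, an adhesion molecule, at 0.14 ± 0.22 and Egfl7, a secreted factor that hosts a microRNA, at 0.18 ± 0.19. Clec14a was thus the highest of the 35 members, at 0.35 ± 0.23 (edgeR adjusted p = 0.399), with 11.2 ± 2.23 CPM in ORX and 8.81 ± 2.93 CPM in intact. Rasip1, Cd34 and Egfl7 overlap antisense genes, so their counts may hold reads of those.

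**Figure D3:**
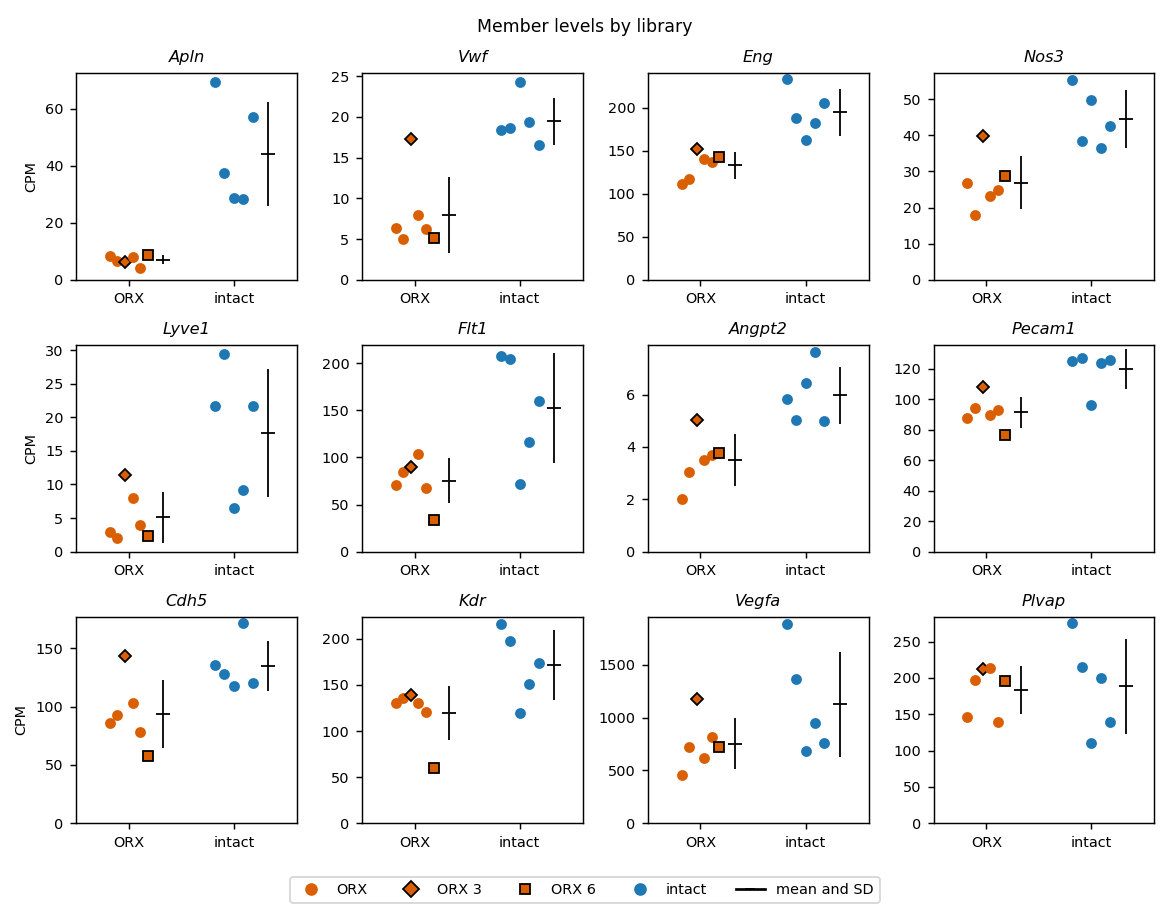
Each point is 1 library, in CPM on a vertical axis that starts at 0, for 12 members in ORX (orange, n = 6; ORX 3 as a diamond, ORX 6 as a square) and intact (blue, n = 5), and bars give mean and SD. Apln and Eng separate the groups, ORX 3 lies among the intact libraries for Vwf, Nos3 and Cdh5, and the groups overlap widely for Plvap.

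Neither gene of fenestrated endothelium passed the test. Plvap, the protein of fenestral diaphragms (chr8:71497765-71511752, minus strand), had 146, 198, 212, 214, 139 and 195 CPM in ORX 1 to 6, against 276, 215, 110.3, 200.4 and 139 CPM in intact 1 to 5. Intact 1 was the highest library and intact 3 the lowest, so that the whole ORX range lay within that of intact (log2 -0.03 ± 0.22, 95% interval -0.53 to 0.47; edgeR adjusted p = 0.948). Ehd3, a membrane-remodelling protein of fenestrated capillaries, averaged 165 ± 28.6 CPM in ORX and 206 ± 81.5 CPM in intact (SD; log2 -0.33 ± 0.24; edgeR adjusted p = 0.461), again with intact 3 the lowest library.

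All 7 transcription factors had log2 fold changes below 0, with a median of -0.43, and none passed. Ets1, an ETS factor of endothelium and lymphocytes, was the single one without overlap, at 44.5, 44.5, 42.5, 35.6, 35.7 and 24.9 CPM in ORX 1 to 6, against 49.2, 59.0, 48.9, 47.7 and 50.9 CPM in intact 1 to 5 (log2 -0.43 ± 0.16; edgeR adjusted p = 0.118). Sox18, an endothelial SOX factor needed for lymphatic development, had 24.1, 26.5, 50.4, 39.3, 40.1 and 39.9 CPM in ORX 1 to 6, against 53.1, 54.3, 49.0, 54.4 and 49.9 CPM in intact 1 to 5. The intact libraries lay close together and 5 ORX libraries lay below them, while ORX 3 fell among them (log2 -0.51 ± 0.18; edgeR adjusted p = 0.11), and without ORX 3 Sox18 was at -0.62 ± 0.17 (edgeR adjusted p = 0.0394). With the offset for transcript length it was at -0.65 (edgeR adjusted p = 0.0471). Sox18 passed in 1 of the 11 fits without 1 library (edgeR adjusted p up to 0.2, without ORX 2).

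The related Sox7 was at -0.49 ± 0.22 and Sox17, an arterial factor whose exons overlap an antisense gene, at -0.43 ± 0.20. Tal1, which acts in blood and endothelial progenitors, was at -0.52 ± 0.22, Fli1 at -0.34 ± 0.34 and Erg, which maintains endothelial identity, at -0.12 ± 0.34. ORX 6 had the lowest level of Erg (3.77 CPM, against 9.29 CPM or more in the other ORX libraries) and of Fli1 (5.50 CPM, against 9.29 CPM or more). The fold change of Erg was 0.07 without ORX 6, and that of Fli1 -0.16. Over the 35 members ORX 6 was the lowest ORX library 13 times and the highest 6 times, where it was the lowest for 30.4% and the highest for 29.8% of all tested genes. The longest transcript had a median of 3995 bases in those 13 members and of 2507 bases in those 6.

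Of the lymphatic markers, Lyve1 fell and Prox1 did not pass. Lyve1, a hyaluronan receptor of lymphatic endothelium that some tissue macrophages also carry (chr7:110850607-110863239, minus strand), had 2.87, 2.08, 11.4, 7.99, 4.004 and 2.26 CPM in ORX 1 to 6, against 21.7, 29.4, 6.56, 9.21 and 21.7 CPM in intact 1 to 5. Intact 3 and 4 lay inside the ORX range, at the top of which ORX 3 stood. Lyve1 fell (log2 -1.797 ± 0.49; edgeR adjusted p = 0.0474), but the call ended without any 1 of ORX 1, 2, 4, 5 and 6 and intact 1, 2 and 5 (edgeR adjusted p up to 0.116, without intact 2), and without ORX 3 it was at -2.21 ± 0.47 (edgeR adjusted p = 0.0137). Prox1, the factor that sets lymphatic identity and that other cell types use as well, averaged 18.7 ± 11.6 CPM in ORX and 21.2 ± 6.89 CPM in intact (SD; log2 -0.17 ± 0.47; edgeR adjusted p = 0.861), with ORX 6 at 2.79 CPM. An antisense transcript overlaps Prox1.

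**Figure D4:**
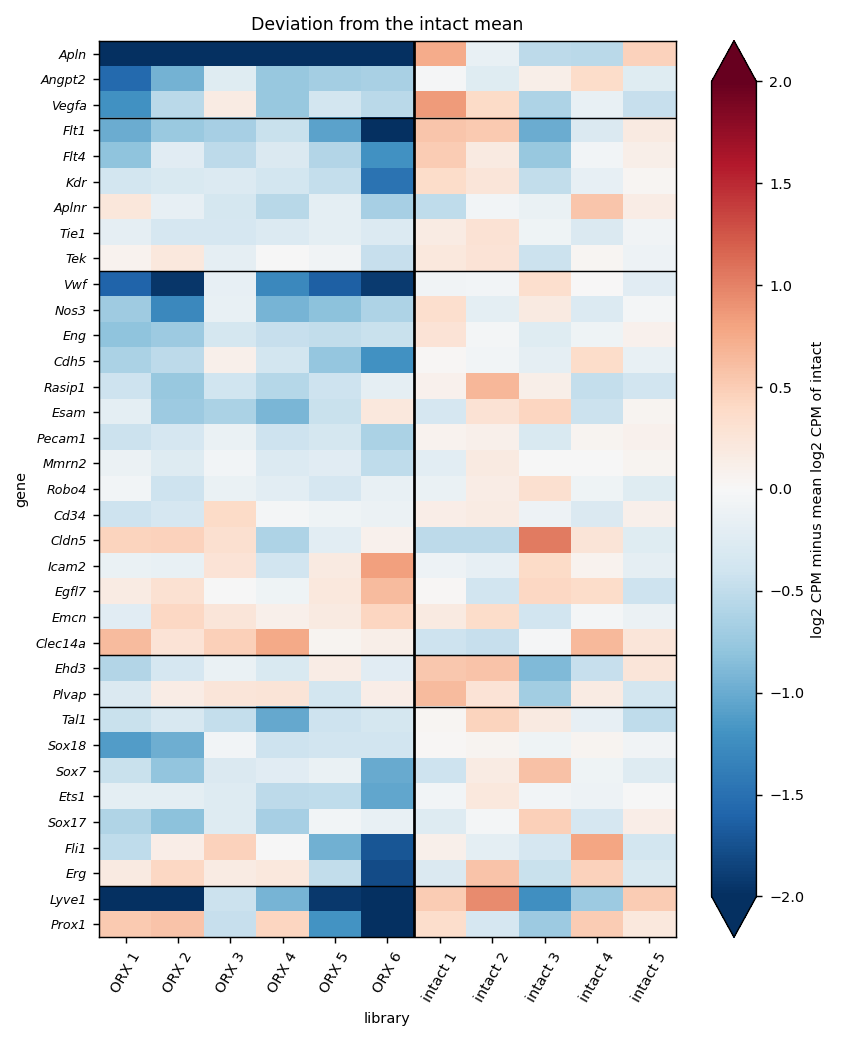
Each row is 1 member and each column 1 library, ORX to the left of the line and intact to the right, and the colour is log2 CPM minus the mean log2 CPM of intact, capped at 2 in both directions. Horizontal lines part the roles (ligands, receptors, other endothelial proteins, fenestrated endothelium, transcription factors, lymphatic markers). Apln is dark blue in all 6 ORX libraries, ORX 3 is paler than its group for Vwf, Nos3 and Cdh5, and ORX 6 is the lowest for Kdr, Flt1, Fli1, Erg and Prox1.

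Across the members, the library ORX 3 was the highest of its group 13 times, against 19% of all tested genes. It lay below the intact range for 5 members, whereas each of the other 5 ORX libraries did so for 17 to 20. The same count over all tested genes was not made for each library. ORX 3 was also the ORX library nearest to intact in the multidimensional scaling plot described above. Whether its nearness to intact was particular to the members was therefore not tested. Intact 3 was the lowest intact library for 15 members, against 24.9% of all tested genes. The summed level of the 34 members other than Vegfa was 1608 to 1984 CPM in ORX, with ORX 3 at the top, and 1832 to 2625 CPM in intact, with intact 3 at the bottom, and the groups overlapped through ORX 3 lying above intact 3. Without ORX 3, 9 members fell (Pecam1, Cdh5, Eng, Vwf, Sox18, Nos3, Apln, Lyve1 and Angpt2), against 5.19% of all tested genes lower in that fit, and the 5 members that fell over all libraries were among them. In the same fit 0 members rose, against 3.93% of all tested genes. Without ORX 3 and ORX 6, 8 members fell, against 5.3% of all tested genes, and without intact 3, 7 fell, against 4.48%.

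Levels per length, as mean CPM per 1000 bases of all annotated exons, can be set against each other between genes. Vegfa was the highest, at 175 ± 56.4 in ORX and 264 ± 116 in intact (SD, n = 6 and 5), and Plvap the next, at 92.6 ± 16.6 in ORX and 94.8 ± 32.9 in intact. Eng was at 32.8 ± 3.88 in ORX and 48.0 ± 6.63 in intact. Apln was at rank 31 of 35 in ORX and at rank 16 in intact, with 2.22 ± 0.504 in ORX and 14.0 ± 5.77 in intact. Places depend on the length used, since annotated exons can exceed the transcript that is expressed.

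Other genes of the same systems were read from lists that share no gene with the members; these lists too were drawn up with earlier results known. Counts in these and the later lists stand beside 3.18% of all tested genes that fell and 3.03% that rose. At an unadjusted p under 0.05 these shares were 12.2% and 10.7%, and 48.7% of all tested genes had a log2 fold change below 0. Among 34 further genes of endothelial cells, 4 fell, 0 rose, 30 did not pass and 31 were below 0, with a median log2 fold change of -0.47. Jam2, a junction adhesion molecule, fell to 28.0 ± 2.82 CPM in ORX, against 56.5 ± 7.00 CPM in intact (SD; log2 -1.01 ± 0.13; edgeR adjusted p = 0.00055), with no overlap. Exoc3l, a relative of exocyst subunits, fell, with 18.8 ± 2.87 CPM in ORX and 37.5 ± 10.7 CPM in intact (SD; edgeR adjusted p = 0.00697), as did Thbd, the anticoagulant receptor thrombomodulin (log2 -1.29 ± 0.25; 0.0103), and Gpr4, a proton-sensing receptor of endothelium (-1.60 ± 0.34; 0.0153). All 4 passed without any 1 library, and 12 genes of this list fell without ORX 3, against 5.19% of all tested genes in that fit.

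Of 17 tested genes of the VEGF and angiopoietin pathway, 2 rose (Vegfd and Vegfc, above), 2 fell and 13 did not pass, with a median of -0.48. The falls were of Ptprj, a receptor phosphatase of endothelium and blood cells (log2 -0.92 ± 0.20; edgeR adjusted p = 0.0172), and Ptprb, the VE-PTP phosphatase that restrains Tek (-0.69 ± 0.17; 0.0292). Among 17 genes of tip cells and sprouting, 3 fell and 14 did not pass. Mcam, the adhesion molecule CD146 of endothelium and pericytes, fell (log2 -0.76 ± 0.16; edgeR adjusted p = 0.0146), as did Col4a1, a chain of basement membrane collagen (-1.30 ± 0.29; 0.0205), and the netrin receptor Unc5b (-0.64 ± 0.17; 0.043). Esm1 and Dll4, which mark tip cells, did not pass and were at -0.03 ± 0.32 and -0.35 ± 0.24.

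The Notch genes of endothelium included 2 of 12 that fell, Jag2, a Notch ligand (log2 -0.87 ± 0.20; edgeR adjusted p = 0.0255), and Notch4, the receptor most particular to endothelium in mice (-0.60 ± 0.14; 0.0261), and 10 that did not pass. Of 17 arterial, venous and capillary genes, 2 fell and 15 did not pass. These were Sema3g, an arterial semaphorin (log2 -1.07 ± 0.25; edgeR adjusted p = 0.0227), and Selp, the P-selectin of veins and platelets (-2.27 ± 0.53; 0.0252), for which intact 1 and 2 had 9.70 and 13.1 CPM and no other library above 4.62 CPM. Of 14 BMP and TGF-beta genes and 7 further lymphatic markers none passed, and medians were -0.33 and -0.63. At an unadjusted p under 0.05, 3 of the BMP and TGF-beta genes were lower and 1 was higher, and 2 of the lymphatic markers were lower. DESeq2 called 2 of the BMP and TGF-beta genes lower and limma voom 2 lower and 1 higher, while for the lymphatic markers DESeq2 called 0 and limma voom 1 lower.

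Of 21 hypoxia genes, whose protein products include the factors that induce Vegfa, 1 fell, P4ha2, a collagen hydroxylase (log2 -0.81 ± 0.22; edgeR adjusted p = 0.0445), while the other 20 missed the threshold. Of the falls in the pathway, sprouting, Notch, vessel type and hypoxia lists, that of Mcam passed without any 1 library. The other 9 ended without 1 or more of ORX 1, 2, 4, 5 and 6 and intact 1, 2, 4 and 5 (edgeR adjusted p up to 0.122). Hif1a was at -0.45 ± 0.26 and Epas1, which encodes the hypoxia factor of endothelium and chromaffin cells, at -0.21 ± 0.15.

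**Figure D5:**
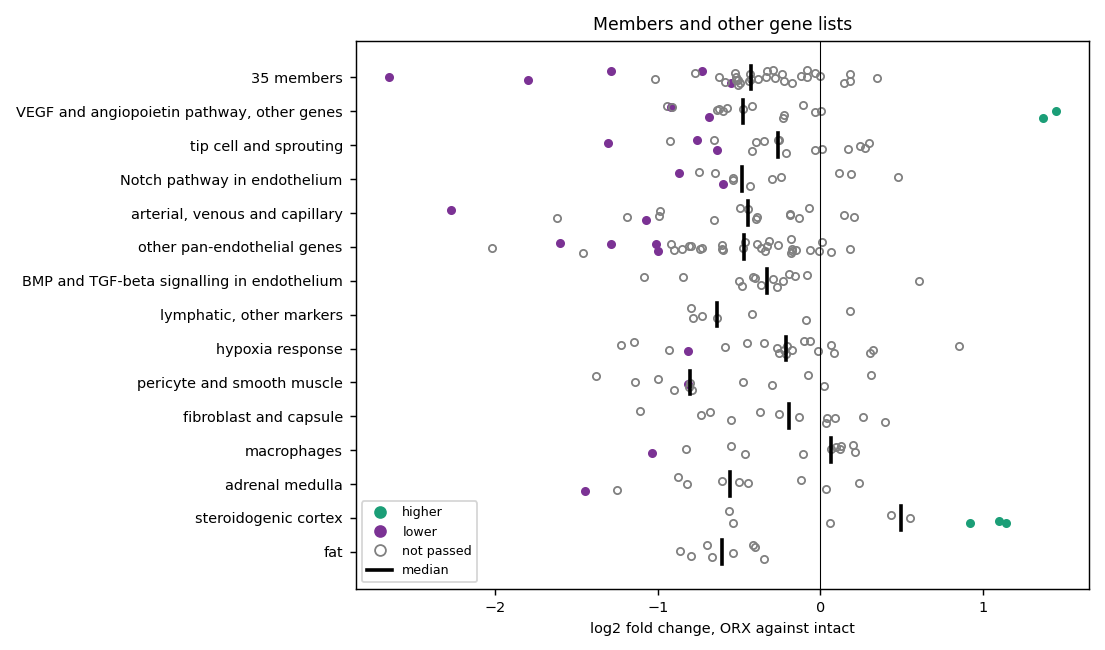
Circles stand for the tested genes of the members and of 14 other lists, placed on the horizontal axis by log2 fold change, ORX against intact. Green circles passed as higher, purple ones as lower, grey open ones did not pass, and black bars mark list medians. The medians of the members and of every other list shown lie below 0, except those of macrophages (0.06) and the steroidogenic cortex (0.49), and Vegfd and Vegfc lie above 1. The kidney and liver list (median 2.04 over 4 tested genes) is not shown.

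Markers of other cells of the gland were read in the same libraries. The 13 genes of pericytes and smooth muscle, which wrap vessels, summed to 301 to 582 CPM in ORX and 545 to 747 CPM in intact, with ORX 3 the highest of ORX, and had a median log2 fold change of -0.80. Pdgfrb, the receptor that marks pericytes, fell (log2 -0.81 ± 0.18; edgeR adjusted p = 0.0186; up to 0.0582 without ORX 5 or intact 5), while the other 12 missed the threshold. At an unadjusted p under 0.05, 8 of these 13 genes were lower and 0 higher, against 12.2% and 10.7% of all tested genes. In the medulla list Slc18a2, a vesicle transporter of catecholamines, fell (log2 -1.44 ± 0.24; edgeR adjusted p = 0.00411), and in the cortex list 3 of 8 genes rose (Mc2r, Hsd3b1 and Cyp21a1). At an unadjusted p under 0.05, 6 medulla genes were lower and 0 higher, and 0 cortex genes were lower and 4 higher. For the medulla the median was -0.55, for fat -0.60 and for the steroidogenic cortex 0.49, and the fat genes summed to 1385 to 8091 CPM in ORX and 2387 to 6595 CPM in intact, again with ORX 3 the highest of ORX (8091 CPM). Fibroblast and capsule genes summed to 582 to 1598 CPM in ORX and 759.6 to 1416 CPM in intact, with ORX 3 the highest library of all. Fibroblast, fat, and kidney and liver lists had 0 genes past the threshold, with 2, 0 and 0 lower and 0, 0 and 2 higher at an unadjusted p under 0.05. DESeq2 called 1 fibroblast gene lower and 1 kidney or liver gene higher, and limma voom called 1 fibroblast and 1 fat gene lower. The part of these cells in the endothelial result was not tested.

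Blood cells share some of the members, such as Vwf, Tal1, Fli1 and Lyve1. The 11 macrophage genes had a median of 0.06 and summed to 328 to 553 CPM in ORX and 277 to 594 CPM in intact. Of these, 1 fell, Cd14 (log2 -1.04 ± 0.21; edgeR adjusted p = 0.0132), while the other 10 missed the threshold. The 12 platelet and mast cell genes summed to 24.8 to 74.9 CPM in ORX and 38.9 to 78.8 CPM in intact, with none past the threshold among 8 tested (0 at an unadjusted p under 0.05, 1 lower by DESeq2 and 1 by limma voom), and the 8 red blood cell genes to 6.85 to 28.0 CPM in ORX and 5.61 to 34.3 CPM in intact, with 4 of them at 0 in every library and none of the 2 tested past the threshold by any of the 3 tools or at an unadjusted p under 0.05. The part of blood cells in the values of Vwf and Lyve1 was not tested.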

How the data were processed

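Adrenal RNA was sequenced in 11 samples, 6 ORX and 5 intact, from 300 ng of total RNA each, per the labels' protocols. The authors deposited raw read counts per gene symbol, in 2 identical copies of one table, of which the first was used, and 0 columns belonged to no sample. Per the submitters' processing notes, Subread 1.5.1, bcl2fastq 1.8.4 and mm10 were used. For the annotation, strand setting and reads matching several genes, the way of counting is not given in the sources used here, so reads of a gene and an antisense gene cannot be told apart. No batch or processing order is given, so whether either differed between the groups is not known.

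Genes were kept by edgeR's filterByExpr (count of at least 10, total of at least 15). The 14139 genes kept held 99.9% of the counts, and the lowest depth was 11368447 counts. After TMM scaling, edgeR 4.0.16 gave the test (quasi-likelihood test, R 4.3.3, two-sided, Benjamini-Hochberg adjustment at 0.05). Values after ± are the SD for CPM and ratios and the SE for log2 fold changes. Alternatives used DESeq2 1.42.0 and limma 3.58.1. On counts simulated for the 14139 genes of this comparison, 1.49% of 67 genes changed 1.5-fold, 46.3% of 67 changed 2-fold and 90.9% of 66 changed 4-fold were recovered, and 4.17% of 96 calls were false. Fewer genes were called there than in the data (878), so these shares are not recovery rates for the members. Lengths and positions come from the GENCODE annotation of GRCm38, and promoters from RefSeq.

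The members and lists were chosen with earlier results of these data known. Values in every library are given for members past the threshold and for Pecam1, Cdh5, Kdr, Flt1, Tek, Emcn, Plvap, Apln, Aplnr, Angpt2 and Vegfa, and members with an adjusted p under 0.1 are named. From each other list up to 3 genes with the smallest p among those past the threshold are named. Ptprb, Gpr4, Vegfb, Pgf, Angpt1, Esm1, Dll4, Hif1a and Epas1, and the values by library of Sox18 and Ets1, were added after values were seen.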

Additional observations from a re-analysis of the deposited data

Results flagged for a closer look

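A library far from the rest of its group was looked for in 70 groups of values, the 35 members in ORX and in intact, and 4 were found. Chance alone gives about 1 in 20, or 3.5 of the 70, so their number is close to what chance gives. In ORX, Kdr was at 60.2 CPM in ORX 6, against 120.2 to 139.1 CPM in the other ORX libraries. Vwf was at 17.2 CPM in ORX 3, against 5.00 to 7.91 CPM in the others. Tal1 was at 3.04 CPM in ORX 4, against 4.42 to 4.93 CPM in the others. In intact, Pecam1 was at 96.0 CPM in intact 3, against 124 to 127 CPM in the other intact libraries.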

How the results depend on the processing

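Over the 23 alternatives 0 members were higher in ORX, and the median log2 fold change of the members stayed below 0. The members that fell, 5 among 878 genes called in all, were 8 among 1721 by DESeq2, 9 among 2056 by limma voom, 1 among 260 at an adjusted p under 0.01, 1 among 174 in a test against a 1.5-fold change and 8 among 1362 without ORX 3 and ORX 6. Leaving out 1 library gave 1 to 9 members and 408 to 1280 genes. Of the members with small fold changes, 6 changed sign under some settings. Without ORX 3 and ORX 6, Tek was at 0.033, Erg at 0.059, Icam2 at -0.12 and Prox1 at 0.17. On library totals Plvap was at 0.023 and Cldn5 at 0.012. By limma voom Cldn5 was at 0.19, Erg at 0.13 and Icam2 at -0.0092. With a transcript length offset Icam2 was at -0.061 and Prox1 at 0.026, and without intact 3 and ORX 6 Cldn5 was at 0.35. Leaving out 1 library gave -0.19 to 0.14 for Plvap, -0.13 to 0.34 for Cldn5, -0.25 to 0.067 for Erg, -0.035 to 0.24 for Icam2 and -0.37 to 0.054 for Prox1. The difference in log2 ratio was 0.022 for Vegfa set against Cdh5 in place of Pecam1, and without 1 library -0.29 to 0.038 for Vegfa and -0.042 to 0.23 for Aplnr. The cause was not tested.

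Same-numbered libraries of ORX and intact share only a number. The correlations of their deviations were -0.28, -0.12, -0.21, 0.18 and 0.18, and 2 of 5 correlated best with their own number. With the number as a replicate block, 3 among 416 genes called were members that fell, and Tek was at 0.0030, Cldn5 at 0.077, Erg at 0.096 and Icam2 at -0.038. Every member had at least 28 counts in each library, while 1.49% of simulated 1.5-fold changes were recovered at this number of libraries. The simulation had 96 calls, against 878 in the data, so an adjusted p under 0.05 was harder to reach there. Its changed genes were drawn from all tested genes, and 1.49% is not a recovery rate for the members.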

Other observations

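Several endothelial genes outside the members came close to the threshold without passing it. Procr, the endothelial protein C receptor, was at log2 -2.02 ± 0.58 in ORX against intact (edgeR adjusted p = 0.0565), Gja5, an arterial connexin, at -1.19 ± 0.33 (0.0513) and Sele, the selectin of activated endothelium, at -1.62 ± 0.51 (0.0764). The groups overlapped for each of them. Procr had 319 and 363 CPM in intact 1 and 2, but 35.6 and 45.7 CPM in intact 3 and 4, inside the ORX range. Sele in intact 3 and 4 (2.72 and 1.26 CPM) also lay inside the ORX range. Cyyr1 was at -1.46 ± 0.41 (0.0517) and did not overlap between the groups. Ace, which encodes angiotensin-converting enzyme, averaged 32.9 ± 10.1 CPM in ORX and 54.6 ± 9.30 CPM in intact (SD; edgeR adjusted p = 0.0547). Rgs5, a pericyte gene, was at -1.14 ± 0.32 (0.0544) and did not overlap either. These genes were picked after their values were seen.

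The liver gene Alb, which encodes albumin, had 34.97, 1.36, 14.1, 75.2, 3.76 and 179 CPM in ORX 1 to 6, against 26.8, 5.69, 1.32, 1.51 and 1.21 CPM in intact 1 to 5 (edgeR adjusted p = 0.167). Its highest library was ORX 6. That library was the lowest of ORX for 13 of 35 members, against 30.4% of all tested genes. It was the highest of ORX for 6 members, against 29.8%. A link between Alb and the members in ORX 6 was not tested.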
